A study of Mus musculus with 24 samples.

Results

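The collagen family was examined across 24 samples of mouse plantaris, a fast hindlimb muscle. The members were the protein-coding genes whose mouse symbol has the form Col, a number, the letter a and a number. The annotation held 44 such genes, and all 44 were among the 47643 gene IDs of the count table. By the textbook division of the family, 11 of them encode fibrillar chains, 6 encode type IV (basement-membrane) chains and 27 encode other collagens. 24 of the 44 had enough counts to be tested, namely 7 fibrillar, 3 type IV and 14 other genes, among 10159 genes tested in all.

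All mice were wild type C57BL/6. One group breathed normal air (11 samples) and the other was exposed to tobacco smoke for 16 weeks (13 samples). The labels gave no age, sex or animal number, so the p-values below measure the spread between these samples and no more. The series title names the aryl hydrocarbon receptor, a sensor of smoke components, as the subject of the study. The comparison of smoke with air asks here whether transcripts of the muscle's collagen scaffold differed after exposure.

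Collagens are secreted proteins in which 3 chains wind around each other, and the winding needs a glycine at the first position of each successive triplet of residues. Fibrillar collagens carry one long uninterrupted stretch of such triplets and pack into the fibrils of tendon and of the connective tissue around muscle. Type IV collagen has interruptions in its triplets and forms the flexible sheet of the basement membrane around each muscle fibre and capillary. Fibroblasts and tendon cells are known as main sources of the fibrillar chains in muscle.

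The structural difference between the classes can be read in the coding sequences, and 5 stretches of 30 codons (90 bases) are shown because they carry it. The sequences are of the GENCODE M21 mouse transcripts, 5′ to 3′ on the coding strand. Capitals mark in-frame codons of the form GGN, which encode glycine, and codons are numbered from the start codon. The stretches of Col1a1 (codons 675 to 704) and Col3a1 (codons 680 to 709) come from the middle of the longest run, and those of Col4a1 (148 to 177), Col4a2 (960 to 989) and Col22a1 (1431 to 1460) cover the end of the longest run.
Col1a1: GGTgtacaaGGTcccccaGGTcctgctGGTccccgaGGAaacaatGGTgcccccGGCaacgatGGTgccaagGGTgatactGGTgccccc
Col3a1: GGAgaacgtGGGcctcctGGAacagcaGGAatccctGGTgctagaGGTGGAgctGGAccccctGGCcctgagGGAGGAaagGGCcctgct
Col4a1: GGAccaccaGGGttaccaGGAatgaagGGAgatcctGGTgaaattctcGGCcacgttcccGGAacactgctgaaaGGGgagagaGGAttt
Col4a2: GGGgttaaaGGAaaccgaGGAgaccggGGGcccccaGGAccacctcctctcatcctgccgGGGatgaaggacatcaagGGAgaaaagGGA
Col22a1: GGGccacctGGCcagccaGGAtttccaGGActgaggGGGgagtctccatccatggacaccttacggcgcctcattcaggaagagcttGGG

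In the Col1a1 and Col3a1 stretches every codon triplet opens with a capital codon. In the Col4a1, Col4a2 and Col22a1 stretches the spacing breaks. The longest unbroken run held 338 glycine-led codon triplets in Col1a1 and 344 in Col3a1, against 40 in Col4a1, 66 in Col4a2 and 113 in Col22a1. Over the 11 fibrillar genes the longest run was 216 to 344 triplets (median 338), with Col24a1 at the low end. Over the 6 type IV genes it was 39 to 66 (median 43.5), and over the 27 other genes 23 to 113 (median 45). Fibrillar genes had 2 to 3 runs of at least 10 triplets, type IV genes 16 to 19 and the other genes 2 to 18. The glycine codons of type IV chains are thus divided among many more runs than those of fibrillar chains. Some other genes were like type IV in this, such as Col7a1 with 18 runs.

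**Figure D1:**
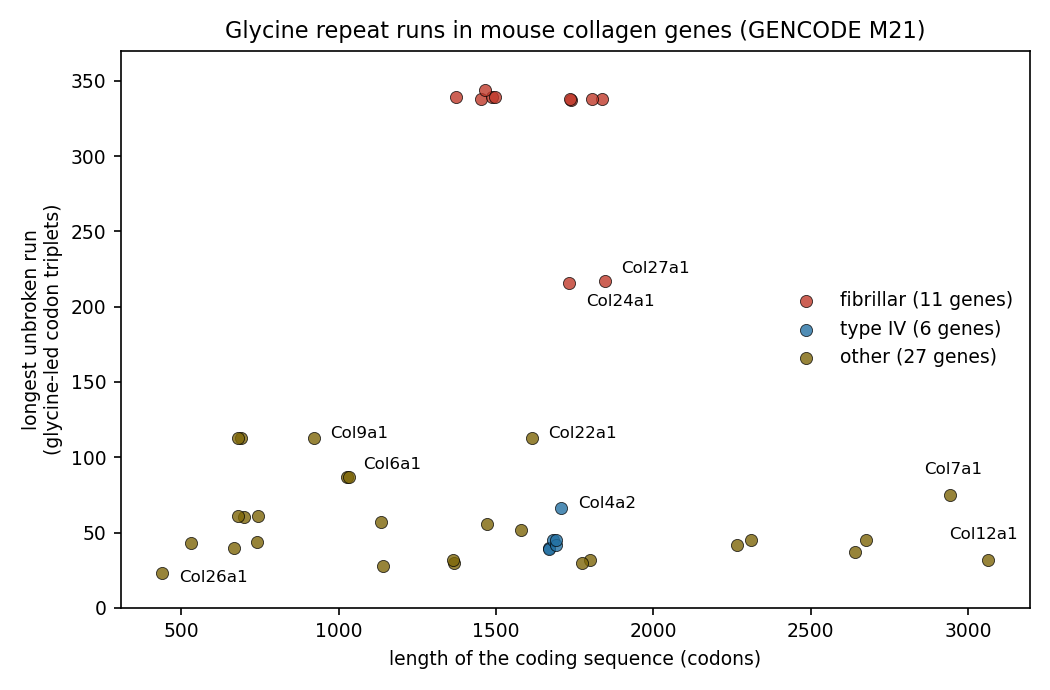
Longest unbroken run of glycine-led codon triplets (vertical axis, number of triplets) against the length of the coding sequence (horizontal axis, codons) for the 44 mouse collagen genes, 1 point per gene, coloured by class. The 11 fibrillar genes lie at 216 to 344 triplets, above all 33 others, which reach at most 113.

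Expression was measured as reads per gene from libraries primed on the poly(A) tail, so the reads come from the transcript's end and were left without scaling by length. Levels of different collagens were therefore not compared, and each gene was compared with itself between groups. Total counts per sample were 2515697 to 4528845, and 3 counts, used as the detection floor, corresponded to 0.665 to 1.15 CPM (counts scaled to a common library total). Fast muscle fibre markers matched the labelled tissue, with Acta1, the skeletal muscle actin, at 52100 ± 6640 CPM in air (SD, n = 11) and 50700 ± 5160 CPM in smoke (SD, n = 13). Smoke samples 5 and 13 stood apart, with the highest summed tendon cell markers. Of 8 Schwann cell markers tested, 5 rose under smoke, and of 5 red blood cell genes 3 fell (edgeR, adjusted p under 0.05), against 0.728% of all genes called higher and 1.19% called lower.

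Tendon, whose cells have markers of their own, is rich in type I collagen. Of the 8 tendon cell markers listed, 4 (Tnmd, Scx, Fmod and Thbs4) passed the expression filter. The summed level of all 8 was 119 to 323 CPM in air (median 185) and 65.6 to 494 CPM in smoke (median 104). Smoke samples 5 and 13 stood at 405 and 494 CPM, and the next smoke sample at 195 CPM. Most of these 2 sums came from Fmod, at 297 and 389 CPM. Thbs4 (41.5 and 34.9 CPM) and Tnmd (24.6 and 31.2 CPM) were also high there. Scx was not set apart, at 25.7 and 29.4 CPM against 26.4 ± 2.75 CPM over the smoke samples (SD, n = 13). The log2 fold changes of Fmod, Thbs4 and Scx between smoke and air were -0.33, -0.19 and -0.01. None of the 8 was at 0 in every sample, and Tnmd, a tendon cell membrane protein, read 1.40 CPM in its lowest smoke sample. None of the 4 passed the test, and Tnmd was at 15.1 ± 6.64 CPM in air (SD, n = 11) and 9.04 ± 8.72 CPM in smoke (SD, n = 13), with edgeR log2 fold change of -0.75 and adjusted p = 0.216. Where leaving out smoke samples 5 and 13 changed a call or moved a log2 fold change of a collagen given in full by over 1.5 times, the value without them is given below. That fit was chosen after seeing the data.

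No collagen gene passed the test between smoke and air at a Benjamini-Hochberg adjusted p under 0.05 (edgeR quasi-likelihood test), against 195 of all 10159 tested genes (1.92%, of which 1.19% were lower and 0.728% higher under smoke). For none of the 24 collagens were the smoke and air samples free of overlap, against 0.0295% of all genes. DESeq2, run on all 27644 genes with a count, called 1 of 44 collagens, Col22a1, and 329 of all genes. Without its expression filter, edgeR called the same collagen and 201 of the 27644 genes. With limma voom, 0 of 24 collagens and 175 of 10159 genes were called. At an unadjusted p under 0.05 there were 6 collagens of 24 (25.0%), against 15.5% of all genes. 5 of the 24 had such a p with a lower level under smoke, against 7.95% of all genes, and 1 of the 24 with a higher level, against 7.55%. The log2 fold change was below 0 for 18 of the 24 collagens, against 48.4% of all genes. Its median was -0.16 over the collagens, with a range of -0.46 to 0.42, and 0.007 over all genes. In RNA from whole muscle, fewer cells of a type and less RNA per cell cannot be told apart.

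The classes differed in their medians, which are given as a description with no test. The 7 fibrillar genes had a median log2 fold change of -0.23 (range -0.44 to 0.18), with 6 of 7 below 0. The 3 type IV genes had a median of -0.06 (range -0.18 to 0.27), with 2 of 3 below 0. Over all 6 type IV genes, with no expression filter, the median was 0.17 in edgeR and 0.18 in DESeq2. The 14 other genes had a median of -0.11 (range -0.46 to 0.42), with 10 of 14 below 0. Without smoke samples 5 and 13 the medians were -0.36, -0.13 and -0.23. Summed over a class, the fibrillar genes gave 104 to 171 CPM in air (median 136) and 90.6 to 168 CPM in smoke (median 117). The type IV genes gave 34.2 to 66.1 CPM in air (median 52.0) and 38.9 to 62.0 CPM in smoke (median 45.2). The other genes gave 127 to 163 CPM in air (median 140) and 123 to 154 CPM in smoke (median 126). In each class the smoke median lay below the air median and the groups overlapped over most of their range.

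**Figure D2:**
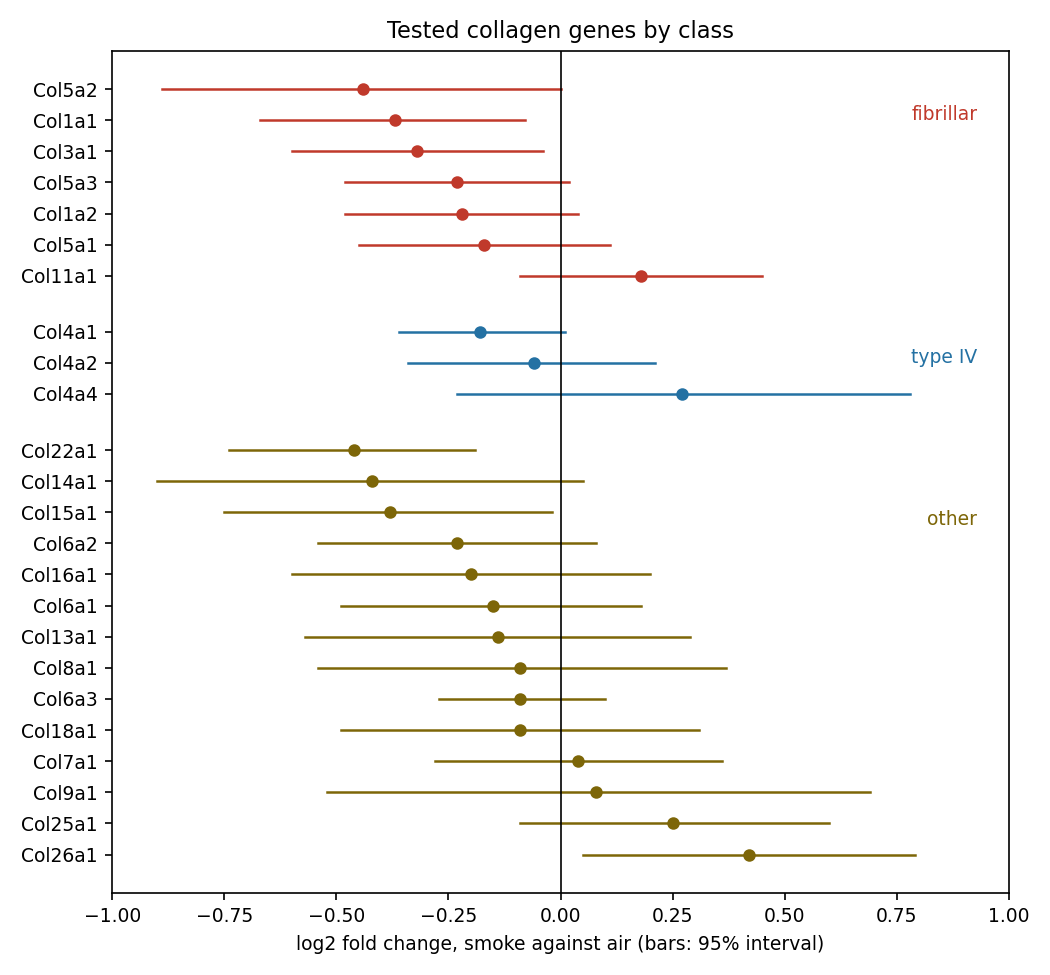
Log2 fold change of smoke against air (horizontal axis) for the 24 tested collagen genes (vertical axis), grouped and coloured by class; points are edgeR estimates and bars their 95% intervals. 18 of 24 points lie below 0, and the interval of Col22a1 (-0.74 to -0.19) has its upper end farthest below 0.

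Among the fibrillar genes, type I collagen is a heterotrimer of the chains encoded by Col1a1 and Col1a2 and is the main collagen of tendon and muscle connective tissue. Col1a1 was at 26 to 52.8 CPM in air (median 35.9) and 16.7 to 52.8 CPM in smoke (median 27.1). 4 smoke samples lay below the lowest air sample and 11 of 13 lay below the air mean, while the highest smoke sample, number 13, matched the top of the air group. The means were 37.2 ± 8.60 CPM in air (SD, n = 11) and 28.8 ± 10.4 CPM in smoke (SD, n = 13), a log2 fold change of -0.37 (SE 0.14, 95% interval -0.67 to -0.08, edgeR unadjusted p = 0.0148, adjusted p = 0.183). Its 55 to 183 counts per sample would give a coefficient of variation of 9.46% by counting alone, and the observed values were 23.1% in air and 36.2% in smoke. Smoke samples 5 and 13, with the highest tendon markers, were also the highest smoke samples for Col1a1, at 48.4 and 52.8 CPM against 29.0 CPM in the next. Without them the log2 fold change was -0.58 and the adjusted p = 0.00466, a value that leaving out the highest smoke samples of the gene itself had to move in this direction. Without sample 13 alone it was -0.48 and adjusted p = 0.0392 (edgeR in both). With the tendon marker score, the mean log2 CPM of the 4 markers, as a covariate over all samples, it was -0.12 and adjusted p = 0.676. The score was 4.99 ± 0.36 in air (SD, n = 11) and 4.52 ± 0.64 in smoke (SD, n = 13). It varied with group (r = -0.41), so the covariate fit cannot fully separate the markers from the smoke against air difference. The score also holds Fmod, the gene with the sample pattern most like that of Col1a1 (r = 0.86). The part of the tendon markers in the Col1a1 result was not tested beyond these fits.

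Col1a2, which encodes the partner chain, was at 14.2 to 39.6 CPM in air (median 27.9) and 16.5 to 43.4 CPM in smoke (median 21.8). The smoke values lay within the air range except for sample 5, which was the highest of all, and 11 of 13 lay below the air mean. The fold change on the log2 scale was -0.22 (standard error 0.13 and adjusted p = 0.435 by edgeR). The samples with the highest tendon markers were also the highest smoke samples for this chain, at 43.4 CPM in smoke 5 and 29.4 CPM in smoke 13. Without them the value for Col1a2 was -0.36 (adjusted p = 0.0855 by edgeR).

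Col3a1 encodes type III collagen, a homotrimer of fine reticular fibres. It was at 9.26 to 22.3 CPM in air (median 18.3) and 8.42 to 20.8 CPM in smoke (median 13.4). 2 smoke samples lay below all air samples and 3 air samples lay above all smoke samples. The estimated log2 fold change was -0.32 (SE 0.14, 95% interval -0.60 to -0.04, edgeR unadjusted p = 0.0279, adjusted p = 0.241). Smoke 5 was again the highest smoke sample, at 20.8 CPM, but smoke 13 was not high, at 12.4 CPM.

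Type V collagen sits inside type I fibrils and limits their diameter. Col5a1 was at 5.98 to 13.9 CPM in air (median 9.22) and 6.12 to 11.3 CPM in smoke (median 8.57). Its log2 fold change was -0.17 (standard error 0.14 and adjusted p = 0.608 by edgeR). Col5a2 was at 2.32 to 8.61 CPM in air (median 5.25) and 1.27 to 7.09 CPM in smoke (median 3.96). The groups overlapped widely, and the log2 fold change of Col5a2 was -0.44 (SE 0.22, 95% interval -0.89 to -0.00, edgeR unadjusted p = 0.0495, adjusted p = 0.321). Col5a2 had 5 to 31 counts per sample.

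Col5a3 encodes a type V chain of narrower distribution. It was at 12.3 to 40.7 CPM in air (median 27.3) and 16.6 to 27.9 CPM in smoke (median 24). All 13 smoke samples lay below the air mean of 28.2 CPM, which was the case for 1.81% of all tested genes, and 5 of 11 air samples lay above every smoke sample. Smoke against air gave a log2 fold change of -0.23 (standard error 0.12 and adjusted p = 0.371 by edgeR). The lowest air sample, at 12.3 CPM, also lay below every smoke sample. Col11a1, a fibrillar chain best known from cartilage, was the only tested fibrillar gene with a positive value. It was at 7.72 to 17.9 CPM in air (median 10.4) and 9.26 to 19.0 CPM in smoke (median 14.1). Its log2 fold change was 0.18 (SE 0.13, 95% interval -0.09 to 0.45, edgeR adjusted p = 0.561).

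**Figure D3:**
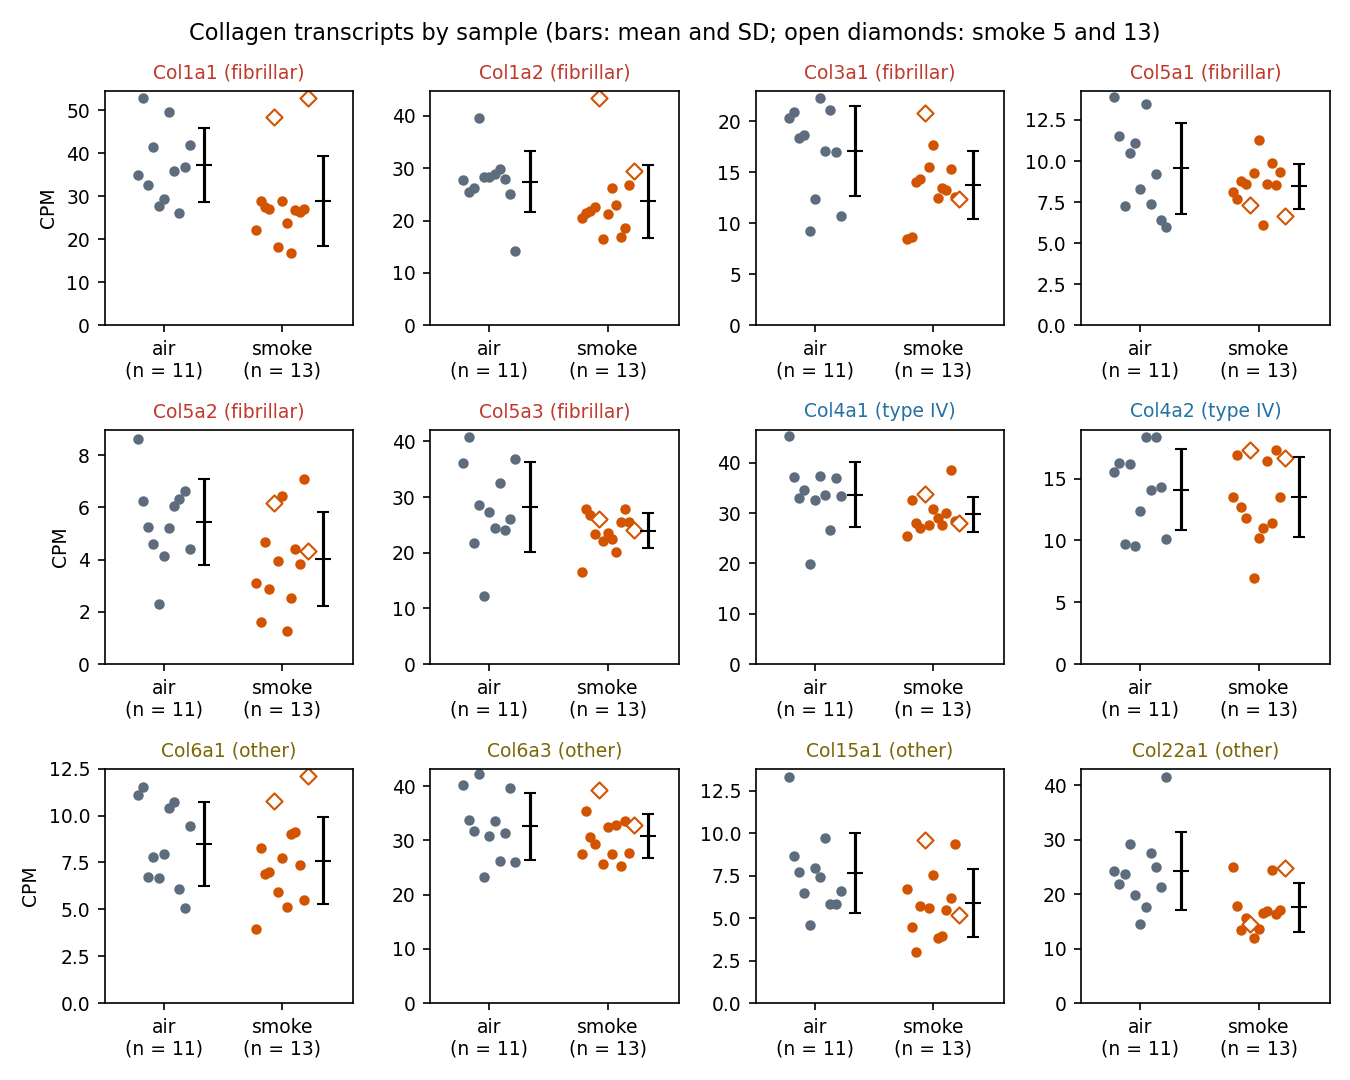
CPM (vertical axes) of 12 collagen genes in each air sample (n = 11) and smoke sample (n = 13), 1 point per sample, with the group mean and SD as a bar at the side; open diamonds are smoke samples 5 and 13. The groups overlap in every panel, and the diamonds are the highest smoke points for Col1a1 (48.4 and 52.8 CPM), Col1a2 and Col6a1 but not for Col22a1.

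Type IV collagen of most basement membranes is built from the chains of Col4a1 and Col4a2. These genes lie head to head, and in the RefSeq annotation of GRCm38.p6 their starts are 21 bases apart on opposite strands. Col4a1 was at 19.8 to 45.3 CPM in air (median 33.6) and 25.5 to 38.5 CPM in smoke (median 28.4). 11 of 13 smoke samples lay below the air mean, although the lowest sample of all was an air sample. The fold change on the log2 scale was -0.18 (SE 0.092, 95% interval -0.36 to 0.01, edgeR adjusted p = 0.361). Col4a2 was at 9.52 to 18.4 CPM in air (median 14.3) and 6.93 to 17.3 CPM in smoke (median 13.5). Its log2 fold change was -0.06 (SE 0.14, 95% interval -0.34 to 0.21, edgeR adjusted p = 0.880), and without smoke samples 5 and 13 it was -0.13 (adjusted p = 0.719).

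The remaining type IV chains form the networks of kidney, lung and other specialised membranes. Col4a4 passed the filter at 4 to 20 counts per sample. It was at 1.06 to 4.87 CPM in air (median 2.91) and 1.55 to 5.10 CPM in smoke (median 2.97), with a log2 fold change of 0.27 (standard error 0.25 and adjusted p = 0.661 by edgeR). Col4a3, Col4a5 and Col4a6 did not pass, with 7, 25 and 7 counts summed over the air samples and 12, 31 and 13 over the smoke samples.

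Type VI collagen forms beaded filaments that link the muscle basement membrane to the surrounding matrix. Mutations in its genes cause muscular dystrophies. All 3 tested chains had a log2 fold change below 0, with a median of -0.15, and none had an unadjusted p under 0.05. Col6a1 was at 5.05 to 11.5 CPM in air (median 7.95) and 3.93 to 12.1 CPM in smoke (median 7.34), with a log2 fold change of -0.15 (standard error 0.16 and adjusted p = 0.716 by edgeR). Col6a2 was at 5.18 to 10.8 CPM in air (median 6.93) and 3.37 to 8.87 CPM in smoke (median 6.13), with a log2 fold change of -0.23 (standard error 0.15 and adjusted p = 0.503 by edgeR). Col6a3 was at 23.2 to 42.3 CPM in air (median 31.8) and 25.3 to 39.2 CPM in smoke (median 30.6), with a log2 fold change of -0.09 (standard error 0.092 and adjusted p = 0.716 by edgeR). The highest smoke samples for Col6a1 were 13, at 12.1 CPM, and 5, at 10.8 CPM. Without them the log2 fold change of Col6a1 was -0.29 (adjusted p = 0.396 by edgeR) and that of Col6a3 was -0.13 (adjusted p = 0.548).

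The fibril-associated collagens have interrupted triplets and attach to the surface of fibrils or to tissue junctions. Col22a1, a chain found at the junction between muscle and tendon, had the smallest p of the family. It was at 14.5 to 41.6 CPM in air (median 23.8) and 11.9 to 25.0 CPM in smoke (median 16.6). 3 smoke samples lay below every air sample and 4 air samples lay above every smoke sample, and 10 of 13 smoke samples lay below the air mean. The means were 24.2 ± 7.14 CPM in air (SD, n = 11) and 17.6 ± 4.42 CPM in smoke (SD, n = 13). The estimated log2 fold change was -0.46 (SE 0.14, 95% interval -0.74 to -0.19, edgeR unadjusted p = 0.00165, adjusted p = 0.0644). It lay on either side of the threshold depending on the fit. The adjusted p was 0.0400 with DESeq2 and 0.0485 in edgeR without smoke samples 5 and 13, and it ranged from 0.0312 to 0.106 when any 1 sample was left out. It was below 0.05 without air 6, air 7, smoke 1, smoke 10 or smoke 13. With the tendon marker score as a covariate the log2 fold change was -0.43 (adjusted p = 0.183 by edgeR). Unlike Col1a1, its levels in smoke 5 and 13 were not both high, at 14.6 and 24.8 CPM.

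The other 3 tested fibril-associated genes were near the counting limit. Col14a1, which binds the surface of type I fibrils, was at 1.89 to 5.15 CPM in air (median 3.98) and 0.587 to 5.19 CPM in smoke (median 3.19). Its log2 fold change was -0.42 (standard error 0.23 and adjusted p = 0.392 by edgeR), and its lowest smoke sample held 2 counts, under the floor of 3. Col16a1 had a log2 fold change of -0.20 (adjusted p = 0.687) and Col9a1, a chain of cartilage fibrils, of 0.08 (adjusted p = 0.934), both by edgeR. The median over the 4 was -0.31.

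The multiplexins Col15a1 and Col18a1 encode basement-membrane proteoglycans, and type XV collagen is known to stabilise muscle fibres and capillaries. Col15a1 was at 4.63 to 13.3 CPM in air (median 7.42) and 3.03 to 9.61 CPM in smoke (median 5.61). 4 smoke samples lay below every air sample, 2 air samples above every smoke sample, and 11 of 13 smoke samples below the air mean. Smoke against air gave a log2 fold change of -0.38 (SE 0.18, 95% interval -0.75 to -0.02, edgeR unadjusted p = 0.0395, adjusted p = 0.286). Col18a1, whose C-terminal fragment is endostatin, had a log2 fold change of -0.09 (standard error 0.20 and adjusted p = 0.891 by edgeR). It overlaps Slc19a1 on the opposite strand in the annotation, so its counts are uncertain. Among the tested collagens, Col4a1 and Col4a2 overlap each other in the same way. Col5a1, Col5a3, Col14a1, Col15a1 and Col22a1 also overlap annotated genes on the opposite strand. Whether strand was used in counting is not known.

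The remaining tested collagens included the one with the largest positive value. Col26a1, a short collagen with the shortest glycine run of the family (23 triplets), was at 2.43 to 11.8 CPM in air (median 6.6) and 5.32 to 12.8 CPM in smoke (median 8.25). 4 of 13 smoke samples lay below the air mean, and the groups overlapped over most of the range. The fold change on the log2 scale was 0.42 (SE 0.18, 95% interval 0.05 to 0.79, edgeR unadjusted p = 0.0255, adjusted p = 0.233). In the annotation Col26a1 overlaps a predicted gene on the same strand, as do Col1a2, Col3a1, Col4a1, Col5a2, Col6a3 and Col25a1. Col25a1, a transmembrane collagen needed for motor nerve growth into muscle, had 7.05 ± 1.93 CPM in air (SD, n = 11) and 8.28 ± 2.77 CPM in smoke (SD, n = 13), a log2 fold change of 0.25 (adjusted p = 0.515 by edgeR). Col13a1, a transmembrane collagen of the neuromuscular junction, had a log2 fold change of -0.14 (adjusted p = 0.815 by edgeR). Col7a1, the anchoring fibril collagen, had 16.3 ± 4.47 CPM in air (SD, n = 11) and 16.7 ± 4.99 CPM in smoke (SD, n = 13), and a log2 fold change of 0.04 (adjusted p = 0.934 by edgeR). Col8a1, a short-chain network collagen, had a log2 fold change of -0.09 (adjusted p = 0.901 by edgeR), and its spread between samples, was 31.5% in air and 41.3% in smoke, where counting alone gives 32.1%.

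The 20 collagens under the filter comprised 4 fibrillar, 3 type IV and 13 other genes. None exceeded 23 counts in any sample or a mean of 2.43 CPM, and every one had at least 1 count in the table. Col2a1, the main collagen of cartilage, had 14 counts summed over the air samples and 14 over the smoke samples. Col10a1, of growth cartilage, had 2 and 1. Col12a1, a fibril-associated chain of tendon and muscle, had 42 and 36, Col6a6 had 76 and 110, and Col23a1, a transmembrane chain, had 76 and 121. In a fit with no filter, none of the 20 had an unadjusted p under 0.05. Overlaps with Nt5dc1 for Col10a1 and with Tcfl5 for Col9a3 make those counts uncertain too.

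Whether chains differed from each other in their response was tested with log2 ratios within each sample, in 4 pairs with permutation tests (two-sided, 100000 resamples, Benjamini-Hochberg over the 4). The ratio of Col1a1 to Col4a1, a fibril chain over a basement-membrane chain, was 0.14 ± 0.28 in air (SD, n = 11) and -0.11 ± 0.43 in smoke (SD, n = 13). Smoke minus air came to -0.24 (SE 0.15, permutation p = 0.123, adjusted p = 0.491), and 11 of 13 smoke samples lay below the air mean. Without smoke samples 5 and 13, the highest of their group for Col1a1, it was -0.39 (adjusted p = 0.00916). Within the type I pair, Col1a1 to Col1a2 differed by -0.18 (SE 0.18, adjusted p = 0.573). Col1a1 to Col3a1 differed by -0.11 (SE 0.19, adjusted p = 0.573) and Col4a1 to Col4a2 by -0.09 (SE 0.14, adjusted p = 0.573). Over all samples, no pair showed a shift in balance beyond the replicate spread.

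Covariation across the 24 samples was measured for 6 pairs of chains as the correlation of log2 CPM after the group means were removed, with permutation within groups. Col4a1 and Col4a2 gave r = 0.40 (p = 0.0478, adjusted p = 0.143 over 6 pairs) and rho = 0.38 (p = 0.0712, adjusted p = 0.214), and leaving out the 2 samples most distant from the Col4a1 median gave r = 0.26. Col1a1 and Col4a1 gave r = 0.42 (p = 0.0251, adjusted p = 0.143) and rho = 0.55 (p = 0.00581, adjusted p = 0.0349), and r was 0.54 without 2 samples. By rank, this pair from different networks was the one of the 6 that passed the threshold. Col1a1 and Col1a2, whose products form 1 molecule, gave r = 0.38 (p = 0.0756, adjusted p = 0.151) and rho = 0.18 (p = 0.398, adjusted p = 0.398). That relation rested on smoke 5 and 13, since r was -0.04 without them, -0.14 in air alone and 0.68 in smoke alone. The pairs Col1a1 with Col3a1 (r = 0.29, rho = 0.24), Col5a1 with Col5a2 (r = 0.28, rho = 0.26) and Col6a1 with Col6a2 (r = 0.35, rho = 0.22) had adjusted p of 0.170, 0.170 and 0.156 for r and of 0.374 each for rho. Their r without 2 samples was 0.22, 0.18 and 0.08.

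**Figure D4:**
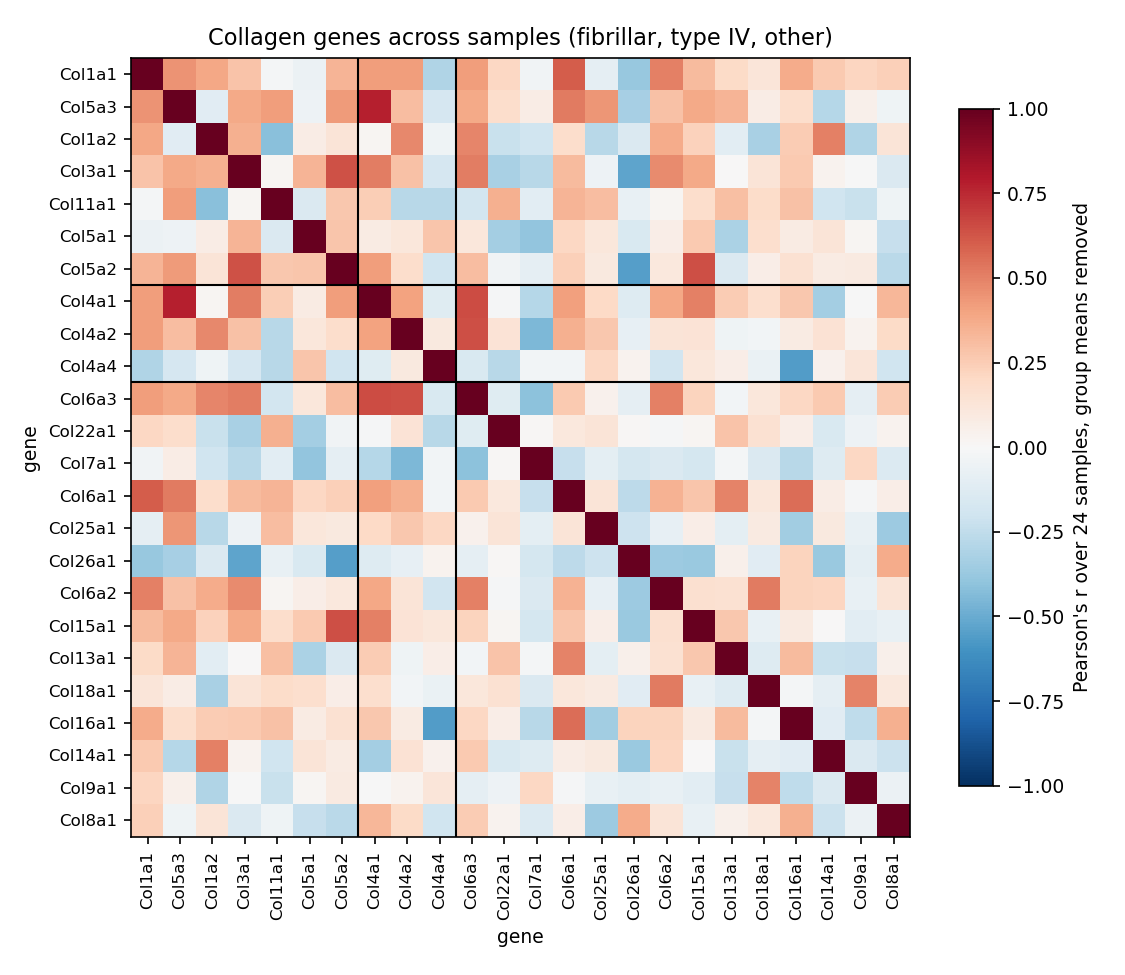
Pearson's r of log2 CPM between the 24 tested collagen genes (both axes), over 24 samples with group means removed; black lines separate fibrillar, type IV and other genes, red is positive and blue negative. The fibrillar block is the reddest, with a median r of 0.28 over 21 pairs against 0.08 over all 276 pairs. The blocks were not matched for counts, and low counts pull r towards 0.

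Over all pairs of tested collagens, given as a description because the genes share libraries and depth, the median r was 0.28 among fibrillar genes (21 pairs), 0.10 among type IV genes (3 pairs) and 0.00 among other genes (91 pairs). Between fibrillar and type IV genes it was 0.17 (21 pairs). The classes were not matched for counts, and counting error pulls r towards 0. For Col16a1, Col14a1 and Col8a1, of the other genes, counting alone gives a spread of 29.5%, 29.6% and 32.1%. The observed spread was 23.4%, 28.5% and 31.5% in air and 38.3%, 46.4% and 41.3% in smoke. The part of counts in the class medians was not tested.

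The genes outside the family whose sample pattern was most like that of Col1a1, among 4020 genes with a mean of at least 20 CPM and by within-group r over 24 samples, were Fmod (0.86), S100a6 (0.78), Crispld2 (0.73), Acta2 (0.67) and Mxra8 (0.67). Fmod encodes fibromodulin, a proteoglycan of tendon fibrils, and stood at 297 CPM in smoke 5 and 389 CPM in smoke 13, above the highest air sample of 230 CPM. All 5 were higher in smoke 13 than their group means. For Col4a1 they were Sf3a1 (0.68), Kdr (0.67), Rflnb (0.66), Arpc1a (0.66) and Zfp329 (0.66). Kdr encodes the main endothelial receptor for VEGF, and no other listed endothelial marker was among the 5. Both lists hold the highest of 4020 values, and neither was tested.

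**Figure D5:**
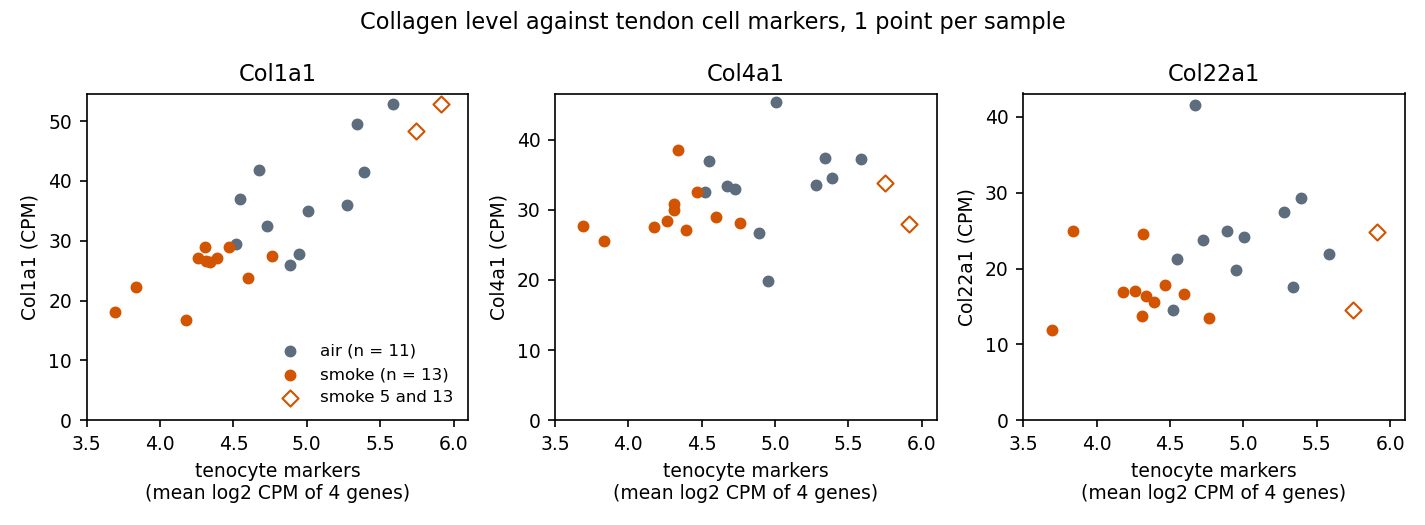
CPM of Col1a1, Col4a1 and Col22a1 (vertical axes) against the mean log2 CPM of the 4 tested tendon cell markers (horizontal axes), 1 point per sample, with air and smoke in different colours and smoke 5 and 13 as open diamonds. The diamonds lie at the far right, where Col1a1 is near the top of its range (48.4 and 52.8 CPM) while Col4a1 is at 33.8 and 28.0 CPM.

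Enzymes that modify and fold collagen chains, 16 tested of 19 listed, were split evenly, with 8 below 0, a median log2 fold change of 0.01 and 0 passing the test. The 3 with the most counts included P4hb, a subunit of prolyl 4-hydroxylase, at 148 ± 12.4 CPM in air (SD, n = 11) and 151 ± 9.51 CPM in smoke (SD, n = 13). They also included Mia3, which loads procollagen into secretory vesicles, with a log2 fold change of 0.12, and Colgalt1, a collagen galactosyltransferase, with -0.07. Serpinh1, the collagen chaperone HSP47, is named here because its values were seen to be the most different of the list. It was at 28.0 to 54.4 CPM in air (median 37.1) and 27.1 to 45.6 CPM in smoke (median 30.8). 12 of 13 smoke samples lay below its air mean, the exception being smoke 13, and the log2 fold change was -0.33 (SE 0.10, edgeR unadjusted p = 0.00239, adjusted p = 0.0777).

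Of 13 genes for procollagen processing and cross-linking, 6 were tested and 0 passed, with all 6 below 0 and a median of -0.04. Pcolce2 and Pcolce, enhancers of procollagen cleavage, and Adamts2, which removes the N-terminal propeptide, had log2 fold changes of -0.01, -0.00 and -0.02. The most negative values of that list were those of Lox, a cross-linking oxidase, at -0.45 (adjusted p = 0.529 by edgeR), and Bmp1, which removes the C-terminal propeptide, at -0.22 (adjusted p = 0.600). Of 15 genes for collagen breakdown and its inhibitors, 9 were tested and 0 passed, with a median of -0.05. Mmp2, gelatinase A, named after its values were seen, was at 15.3 ± 2.93 CPM in air (SD, n = 11) and 11.8 ± 2.77 CPM in smoke (SD, n = 13), a log2 fold change of -0.37 (edgeR unadjusted p = 0.00472, adjusted p = 0.109). It was 1 of 3 genes of that list, out of 9 tested, with an unadjusted p under 0.05, against 15.5% of all genes. The others were Fap, a fibroblast protease, at -0.37 (edgeR unadjusted p = 0.0208, adjusted p = 0.214), and the metalloproteinase inhibitor Timp4, at 0.24 (edgeR unadjusted p = 0.0297, adjusted p = 0.249). The inhibitors Timp2 and Timp3 had log2 fold changes of 0.01 and 0.16. All 4 tested collagen receptor genes of 9 listed (Itgb1, Ddr1, Ddr2 and Itga11) were below 0, with a median of -0.12 and 0 passing. Only Ddr2 among them had an unadjusted p under 0.05 (log2 fold change -0.20, edgeR unadjusted p = 0.0412, adjusted p = 0.292). Of 14 genes of TGF-beta signalling, a known inducer of fibrillar collagen genes, 12 were tested and 0 passed, with 4 below 0 and a median of 0.03. Smad4, Smad3 and Tgfb2 had log2 fold changes of 0.02, -0.00 and 0.14. Of the 12, Tgfb2 (edgeR unadjusted p = 0.0447, adjusted p = 0.305) and Tgfbr1 had an unadjusted p under 0.05. Tgfbr1 had a log2 fold change of -0.22 (edgeR unadjusted p = 0.0428, adjusted p = 0.298).

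Markers of the other cells that make collagen were measured beside these genes. Of 10 fibroblast markers tested, 0 passed, 7 were below 0 and the median log2 fold change was -0.08. Their summed level was 1920 to 2550 CPM in air and 1970 to 2830 CPM in smoke, most of it from Gsn, at 1930 ± 188 CPM in air (SD, n = 11) and 2010 ± 281 CPM in smoke (SD, n = 13). 3 of the 10 had an unadjusted p under 0.05 and lower levels under smoke, against 7.95% of all genes. These were Pi16, with a log2 fold change of -0.39 (edgeR unadjusted p = 0.00509, adjusted p = 0.114), Dpt, with -0.29 (0.0122 and 0.167), and Ly6a, with -0.16 (0.0302 and 0.251), named after their values were seen. Pdgfra, Gsn and Cd34 were above 0, at 0.20, 0.06 and 0.05. Of 8 endothelial markers 0 passed and the median was -0.04, and of 7 pericyte and smooth muscle markers 0 passed and the median was 0.07. Myh11, the smooth muscle myosin, had the smallest p of that list, with a log2 fold change of 0.50 (edgeR unadjusted p = 0.00121, adjusted p = 0.0558), and was named after its values were seen. The part of these markers in the collagen values was not tested.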

How the data were processed

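The deposited table holds unnormalised read counts, 1 column for each of the 24 samples and 1 row per Ensembl gene. Per the labels' protocols, RNA came from frozen plantaris on columns, Lexogen QuantSeq 3′ FWD was the library kit, and sequencing was on a HiSeq 4000. The submitters' processing notes name STAR, DESeq2 and mm9 without roles or versions; the counting tool, annotation and strand use are not given in the sources used here, so no coordinates of counted genes are printed. Reads may include PCR copies, so the floor of 3 counts covers counting error only. All samples were on lane 6, and sheet numbers ran from 229 to 241 for smoke and 242 to 252 for air, so sheet position and group cannot be told apart.

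Symbols, classes and coding sequences used GENCODE M21, which held 47224 of 47643 IDs (99.1%); RefSeq GRCm38.p6 gave the Col4a1 and Col4a2 starts. Counts were tested with edgeR 4.0.16 in R 4.3.3 (filterByExpr on group with minimum count 10, TMM, glmQLFit and glmQLFTest, no covariates), with Benjamini-Hochberg adjustment over 10159 genes. CPM values are TMM-scaled; ratios and correlations used log2 CPM with prior count 2. On simulated counts for smoke against air, 93% of 2-fold and 64% of 1.5-fold changes were called among 10039 genes. No samples were merged: chi-square per gene was 2.33 to 16 over 133 within-group pairs. Same-numbered air and smoke samples did not deviate together (mean r -0.0059 over 11 pairs), so replicate numbers did not pair them. Alternatives used DESeq2 1.42.0, limma 3.58.1, sva 3.50.0, RLE scaling, other filters, removal of the 10 most abundant genes and leaving out each sample; the tendon marker covariate, the fit without smoke 5 and 13 and the table of 276 pairs were chosen after seeing the data. 1 marker gene and a fit that rests on it are not reported here.

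The collagen genes and all gene lists were chosen with earlier results of these data known. Every tested collagen is described; the named type I, III, IV, V, VI and XV chains are given in full, of each pathway list the called genes and the 3 of highest mean CPM, and the 5 genes most like Col1a1 and Col4a1. Col22a1, Col5a3, Col11a1, Col26a1, Serpinh1, Mmp2, Fap, Lox, Bmp1, Tgfbr1, Myh11 and the fibroblast markers were given after their values were seen.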

Additional observations from a re-analysis of the deposited data

How the results depend on the processing

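The count of collagens called, 0, was 1 with DESeq2 (run on all 27644 genes with a count), with edgeR on the same genes without the expression filter, with 1 surrogate variable and at an adjusted p under 0.10, and 2 without smoke 5 and 13; leaving out 1 sample gave 0 to 2. The called genes were Col22a1 and, in the fits with 2, also Col1a1. The fit with the replicate number as a block (22 samples) also drops smoke 12 and 13, which have no air partner. It gave 2 collagens and 138 genes, and a Col1a1 to Col4a1 log2 ratio of -0.339 (adjusted p = 0.0391); without smoke 13 and with no block the same 2 collagens were called and the ratio was -0.328 (adjusted p = 0.0706). Not every sample correlated best with its own number (2 of 11 air samples did). The ratio was -0.392 without smoke 5 and 13. All genes called numbered 329 with DESeq2, 436 with a surrogate variable, 70 with the tendon marker covariate and 413 at an adjusted p under 0.10, against 195, and 141 to 254 without 1 sample. The type IV median was 0.179 with DESeq2 and 0.172 with no filter, where all 6 chains enter. The correlation of Col1a1 with Col1a2 was -0.04 without the 2 farthest samples, which were smoke 5 and 13, and -0.14 in air alone. Under the tendon covariate Col4a2 was 0.083, Col6a1 0.065 and Col8a1 0.006. Without 1 sample, Col7a1 ranged from -0.04 to 0.107 and Col9a1 from -0.074 to 0.213. Other small fold changes kept their sign but moved by over 1.5 times, among them Col4a2 (-0.115 to -0.011), Col6a3 (-0.131 to -0.045), Col8a1 (-0.155 to -0.012), Col13a1 (-0.225 to -0.041) and Col18a1 (-0.182 to -0.024). Of 262 other fold changes, 7 crossed into a call and 3 reversed, and without 1 sample 6 of 570 crossed and 5 reversed. Over all alternatives the fibrillar median ranged from -0.356 to -0.149, the type IV median from -0.131 to 0.179 and the median of the other collagens from -0.229 to -0.025; the fibrillar and other medians were lowest without smoke 5 and 13 and nearest 0 with the tendon covariate. The cause of these shifts was not tested, apart from the added chains. The 20 collagens under the filter had at most 23 counts in a sample, and the simulation covered genes that passed the filter.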

Other observations

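Of the 276 pairs of tested collagens, 33 had an unadjusted permutation p under 0.05 for r and 0 passed after Benjamini-Hochberg adjustment over the 276, for r or for rho. The pairs named here are the 5 with the smallest p for r and the 2 with the most negative r, chosen after their values were seen, and whether they differ from other pairs was not tested. The highest r was that of Col4a1 with Col5a3, the basement-membrane and type V genes, at r = 0.78 (permutation p = 0.00023, adjusted p = 0.0574) and rho = 0.63 (permutation p = 0.00102, adjusted p = 0.106). Its r was 0.80 in air, 0.70 in smoke and 0.51 without the 2 samples farthest from the Col4a1 median. Col3a1 with Col5a2 gave r = 0.63 (permutation p = 0.0009, adjusted p = 0.0574) and rho = 0.55 (permutation p = 0.00594, adjusted p = 0.187), with r = 0.56 without 2 samples. Col4a2 with Col6a3, 2 genes of the fibre surface, gave r = 0.64 (permutation p = 0.00088, adjusted p = 0.0574) and rho = 0.65 (permutation p = 0.00115, adjusted p = 0.106), with r = 0.55 without 2 samples. Col4a1 with Col6a3 gave r = 0.66 (permutation p = 0.00096, adjusted p = 0.0574) and rho = 0.59 (permutation p = 0.00263, adjusted p = 0.145), with r = 0.46 without 2 samples. Col5a2 with Col15a1 gave r = 0.65 (permutation p = 0.00104, adjusted p = 0.0574) and rho = 0.49 (permutation p = 0.0192, adjusted p = 0.295), with r = 0.55 without 2 samples. Col4a4 with Col16a1 was negative, at r = -0.55 (permutation p = 0.00299, adjusted p = 0.118) and rho = -0.64 (permutation p = 0.00078, adjusted p = 0.106), with r = -0.58 without 2 samples. Col5a2 with Col26a1 also ran the other way, at r = -0.55 (permutation p = 0.00449, adjusted p = 0.148) and rho = -0.60 (permutation p = 0.00254, adjusted p = 0.145), with r = -0.55 without 2 samples.

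Col20a1, a fibril-associated collagen under the filter, had 67 counts summed over 11 air samples and 51 over 13 smoke samples. All 13 smoke samples lay below the air mean, as for 1.81% of tested genes. That share covers only genes that passed the filter, which Col20a1, with 1 to 12 counts per sample, did not. Col20a1 was picked for this after its values were seen. In the fit with no filter its log2 fold change was -0.62 (edgeR unadjusted p = 0.0814, adjusted p = 0.515). Of the 20 collagens under the filter, 10 were below 0 there and 10 above. Those below included Col9a3 at -1.03 (edgeR unadjusted p = 0.0960), Col6a5 at -0.44 and Col12a1 at -0.43. Those above included Col17a1 (edgeR unadjusted p = 0.0675, adjusted p = 0.507), Col19a1 at 0.68 and Col23a1 at 0.48. Col17a1 had 2 counts in air and 9 in smoke, of which 6 were in 1 sample.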
